A study of Mus musculus with 20 samples.

Results

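At each heartbeat calcium enters a heart muscle cell, and it is then pumped back into its store or expelled. The levels of 10 genes that carry out this reuptake, exchange and entry were measured in mouse hearts, namely Atp2a2, Pln, Hrc, Sri, Slc8a1, Atp2b1, Cacna1c, Cacnb2, Cacna2d1 and Cacna1h. The genes were taken by name (the SERCA pump and its regulators, the sodium-calcium exchanger, a plasma membrane pump, and subunits of the L- and T-type channels), and all 10 were found among the 29339 genes of the deposited table.

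RNA of hearts from C57BL/6 mice aged 8 weeks was sequenced in 20 libraries of 4 labelled groups. Male wild-type (WT) hearts gave the libraries WT1, WT2, S7, S8 and S9, male Tecrl knockout (KO) hearts S10, S11, S12, TKO5 and TKO6, female WT hearts S1, S2 and S3, and female KO hearts S4, S5, S6 and TKO1 to TKO4. Tecrl encodes trans-2,3-enoyl-CoA reductase like, and deficiency of it is linked to catecholaminergic polymorphic ventricular tachycardia, a disorder of calcium handling. How the KO allele was made, in which cells it is absent, and whether the WT mice were littermates is not given in the sources used here. The library names form a pair of naming series, 12 S libraries and 8 WT/TKO libraries, about which the labels say nothing more. The study's methods describe libraries made per mouse, but for smaller groups than most of those labelled here, and the labels do not say that each library is a separate mouse. The p-values thus measure the spread between these libraries, part of which may be technical.

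Each library held 12540002 to 20038593 counts in total, with a median of 14713069.5. The heart muscle genes Myh6 (10494 to 22311 CPM, that is counts scaled to the library total by edgeR's TMM method) and Tnnt2 (6382 to 9167 CPM) were high in all 20 libraries. The targeted gene did not separate the labels: Tecrl ran from 51.5 to 124.5 CPM, with WT and KO overlapping. In 6 libraries (S4 to S9) the sex-linked genes went against the labelled sex. Within the S series all 6 WT libraries had Xist and all 6 KO libraries had Y-linked transcripts, so there genotype and sex-linked expression cannot be told apart, and male and female stand throughout for the label alone. Myl7, the atrial myosin light chain, was above 500 CPM in S7, S9, S11 and S12 and under 10 CPM in 13 libraries. The summed level of 10 atrial marker genes, all of them detected, ran from 660 to 13443 CPM in the S series and from 911 to 1335 CPM in the WT/TKO series, and that of 8 ventricular markers from 19214 to 33124 CPM and from 29097 to 36740 CPM. Fewer cells of a type and less RNA per cell cannot be told apart in such bulk samples.

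The L-type channel opens when the membrane depolarises and admits the calcium that triggers release from the sarcoplasmic reticulum. The SERCA pump then returns most of it to the store, and the remainder leaves across the cell membrane, mainly through the sodium-calcium exchanger. T-type channels open at more negative voltages and are best known in the heart from pacemaker cells, the conduction system and the fetal myocardium.

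Per transcript length (FPKM, fragments per kilobase of exon scaled to the library total), the 10 genes differed widely. Atp2a2, which encodes the cardiac pump SERCA2, had a median of 1429 FPKM (lowest 841, highest 2186, n = 20). Hrc (median 310 FPKM, 157 to 403) and Pln (median 295 FPKM, 191 to 389) came next, and neither overlapped with Atp2a2 or with any gene below them, whereas their own ranges overlapped. Sri (median 12.7 FPKM), Cacna2d1 (11.4 FPKM), Cacna1c (10.3 FPKM) and Slc8a1 (10.1 FPKM) lay within each other's ranges. Atp2b1 (median 3.57 FPKM), Cacnb2 (2.28 FPKM) and Cacna1h (0.944 FPKM) were lowest, again with overlapping ranges. Cacna1h was the widest of all: its CPM varied 21.4-fold between the lowest and highest library, against 1.45-fold for Atp2b1 and 1.56-fold for Sri.

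**Figure D1:**
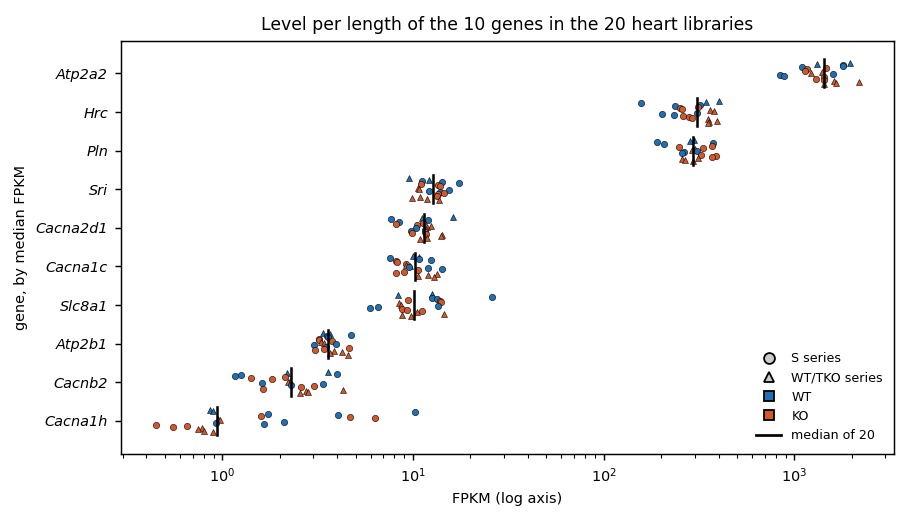
FPKM of each gene in each of the 20 libraries on a log axis, with genes ordered by their median (black bar), circles for the S series, triangles for the WT/TKO series, blue for WT and orange for KO. Atp2a2 stands alone at the top, Hrc and Pln form the next step, and Cacna1h spreads from 0.449 to 10.3 FPKM.

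Coordinates follow GENCODE release M21 on GRCm38, and all 10 genes are protein coding. Atp2a2 lies on the minus strand of chromosome 5 from 122453513 to 122502225, Pln on the plus strand of chromosome 10 from 53337667 to 53345987, Hrc on the plus strand of chromosome 7 from 45335290 to 45338974, and Sri on the plus strand of chromosome 5 from 8046078 to 8069379. Slc8a1 lies on the minus strand of chromosome 17 from 81373105 to 81738377, and Atp2b1 on the plus strand of chromosome 10 from 98914406 to 99026143. Of the channel genes, Cacna1c lies on the minus strand of chromosome 6 from 118587240 to 119196418, Cacnb2 on the plus strand of chromosome 2 from 14603088 to 14987908, Cacna2d1 on the plus strand of chromosome 5 from 15934691 to 16374511, and Cacna1h on the minus strand of chromosome 17 from 25374285 to 25433783. In Pln, 1785 of 2759 exonic bases overlap Cep85l and Gm47644 on the opposite strand, and whether the counting used strand is not given in the sources used here, so the Pln values may hold reads of those genes or lack shared ones. The overlap was 968 of 13228 bases for Cacnb2, 304 of 18807 for Slc8a1, 158 of 9763 for Cacna1h and 83 of 6081 for Atp2a2, and the other members had none.

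Upstream sequence was found for 8 of the 10 genes in the RefSeq promoter table (GRCm38.p6). It is shown for Hrc and Cacna2d1, whose levels differed between the naming series and followed each other most closely among all pairs of members, and for Pln, a SERCA regulator whose difference between the series did not pass the threshold. Each run is the 250 bases before the annotated start, 5′ to 3′ on the strand of the gene, and capitals mark matches on either strand to one of 4 motifs, namely GATAA, known as the core of sites for GATA factors, then CATTCC, which is called the muscle M-CAT motif, then TATAAA, which is the usual form of the TATA box, and finally GGGCGG, which is called the GC box.
Hrc, chr7:45335019-45335268, plus strand: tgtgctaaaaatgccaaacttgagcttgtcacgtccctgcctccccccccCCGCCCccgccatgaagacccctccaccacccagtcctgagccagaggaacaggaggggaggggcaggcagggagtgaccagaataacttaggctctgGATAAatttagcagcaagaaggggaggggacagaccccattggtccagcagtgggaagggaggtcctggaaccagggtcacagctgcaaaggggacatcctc
Cacna2d1, chr5:15934441-15934690, plus strand: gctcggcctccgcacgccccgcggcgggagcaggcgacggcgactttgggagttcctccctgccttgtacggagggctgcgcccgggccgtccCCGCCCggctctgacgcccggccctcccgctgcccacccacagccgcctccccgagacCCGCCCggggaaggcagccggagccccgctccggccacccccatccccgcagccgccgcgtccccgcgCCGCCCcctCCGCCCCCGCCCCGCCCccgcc
Pln, chr10:53337436-53337685, plus strand: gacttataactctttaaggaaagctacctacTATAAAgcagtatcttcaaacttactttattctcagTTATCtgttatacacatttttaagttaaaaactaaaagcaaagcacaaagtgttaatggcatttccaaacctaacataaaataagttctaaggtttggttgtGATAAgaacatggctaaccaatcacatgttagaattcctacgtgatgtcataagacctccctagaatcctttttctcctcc
The Hrc sequence held 1 GATA core, 102 bases before the start, and 1 GC box. The Cacna2d1 sequence held 6 GC boxes, of which a neighbouring pair shared 1 base, and no match to the other motifs, at a GC content of 82.4%. The Pln sequence held 2 GATA cores and 1 TATA box, 219 bases before the start, at a GC content of 32.8%, and no GC box. In those 3 sequences no 2 different motifs overlapped. Among 32851 RefSeq promoters, windows of the same length held a GATA core in 22.58%, an M-CAT in 12.64%, a TATA box in 12.37% and a GC box in 32.74%. Hrc and Cacna2d1 thus had only the GC box in common. Cacna1c, which also passed between the series, held 0, 6 and 0 GC boxes at its 3 starts. Of the members that did not pass, Atp2b1 held 4 and 3, Cacnb2 1 and 0, and Sri and Slc8a1 0 each. These matches are descriptions of letters and not of bound sites.

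Members were then compared between KO and WT with edgeR's quasi-likelihood test, with naming series as covariate and p-values adjusted by the Benjamini-Hochberg method over all genes tested. Of the 10 members, 0 had an adjusted p under 0.05 in male-labelled libraries, where 0% of 14481 genes did, and 0 in female-labelled ones, where 0.0551% of 14511 genes did. Over all 20 libraries the count was again 0 of 10, against 0% of 15187 genes. DESeq2 called 0, 1 (Cacna1h) and 0 members in these comparisons. At an unadjusted p under 0.05, 0, 3 (Pln, Cacna1c and Cacna1h) and 1 (Cacna1c) of the members passed, while 688 genes passed in male-labelled libraries, 2597 in female-labelled ones and 748 over all 20. The study called genes by a fold change past 0.58 on the log2 scale, in either direction, together with an unadjusted p under 0.05. By that rule 0 of 10 members passed in male-labelled libraries (2.09% of all genes), 1 of 10, Cacna1h, in female-labelled ones (9.99% of all genes), and 0 of 10 over all 20 libraries (1.94% of all genes). The median log2 fold change of the members was -0.16 in male-labelled libraries, 0.04 in female-labelled ones and -0.06 over all 20, beside -0.01, -0.02 and -0.01 for all genes tested.

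**Figure D2:**
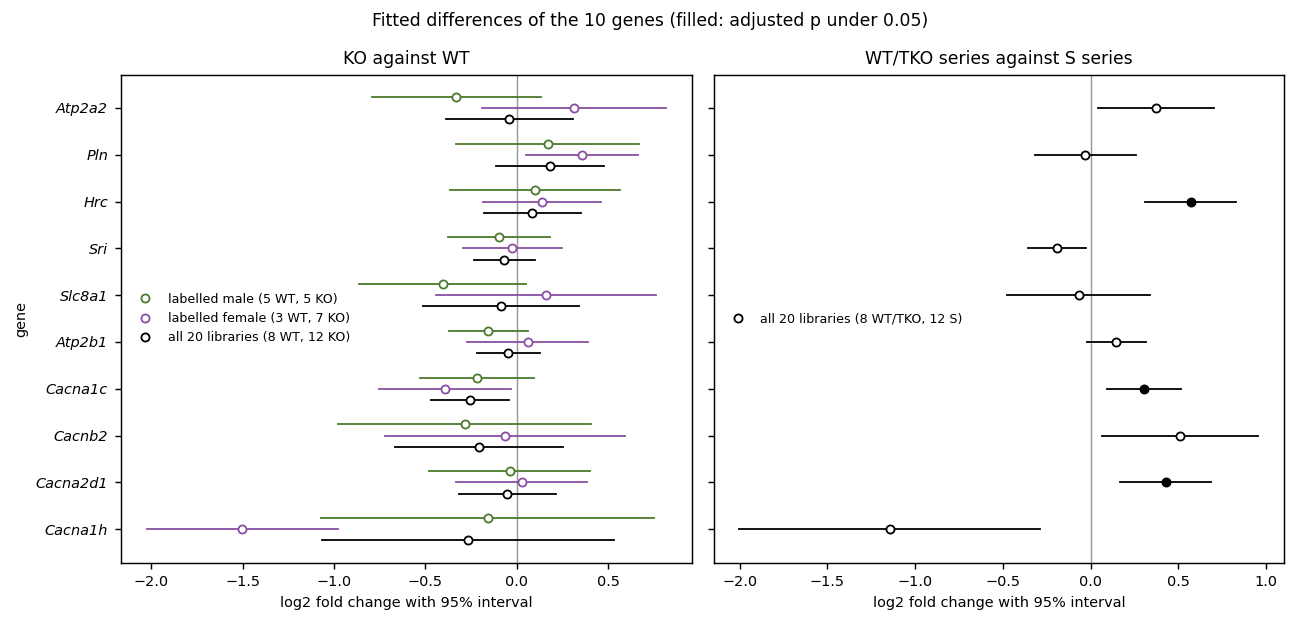
Fitted log2 fold change of each gene with its 95% interval, on the left for KO against WT in male-labelled libraries (green), labelled female (purple) and all 20 (black), and on the right for the WT/TKO series against the S series. Filled points have an adjusted p under 0.05. On the left no point is filled and Cacna1h of the female-labelled libraries lies farthest from 0, at -1.50, and on the right Hrc, Cacna1c and Cacna2d1 are filled.

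Atp2a2, the pump that refills the sarcoplasmic reticulum, had 13590, 8195, 9824, 11198 and 5918 CPM in WT1, WT2, S7, S8 and S9, and 9178, 6690, 6216, 8860 and 8036 CPM in S10, S11, S12, TKO5 and TKO6. The female WT libraries S1 to S3 had 9575, 5549 and 5206 CPM, and the 7 labelled female KO ran from 7993 to 13964 CPM with a median of 8923. WT and KO overlapped in both labelled sexes, S1 standing well above S2 and S3. On the log2 scale KO differed from WT by -0.33 in male-labelled libraries (standard error, SE, 0.211, adjusted p = 0.882) and 0.31 in female-labelled ones (SE 0.233, adjusted p = 0.502). The genotype by labelled sex term, the male effect minus the female effect, was -0.66 (SE 0.307, unadjusted p = 0.0429, adjusted p = 0.306). For this term 0 of 10 members had an adjusted p under 0.05, as did 0% of all genes (2375 at an unadjusted p under 0.05), and DESeq2 also called 0. Of the 10, 1, Atp2a2, passed the study's thresholds, as did 11.3% of all genes. The female difference was 0.62 without S1 (adjusted p = 0.0389), which then passed, but 0.20 without S2 and 0.16 without S3 (adjusted p = 0.764 and 0.888). It was 0.52 without the series covariate (adjusted p = 0.202), and the male difference was -0.19 without WT1 (adjusted p = 0.997). The endothelial markers, 5 of 5 detected, summed to 3562 to 5440 CPM in the female WT libraries and to 2198 to 3678 CPM in the female KO libraries, and their part in the Atp2a2 values was not tested.

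Pln encodes phospholamban, which slows SERCA2 until it is phosphorylated. The male WT libraries had 935, 804, 472, 1060 and 512 CPM in the order above, with S7 and S9 lowest, and the male KO libraries had 1057, 652, 824, 863 and 868 CPM. Female WT libraries had 846, 792 and 688 CPM, and the female KO libraries ran from 709 to 1087 CPM with a median of 856. The groups overlapped in both labelled sexes. The log2 fold change was 0.17 in male-labelled libraries (SE 0.228, adjusted p = 0.908) and 0.36 in female-labelled ones (SE 0.142, unadjusted p = 0.0264, adjusted p = 0.237). Over all 20 libraries it was 0.18, with a 95% interval from -0.11 to 0.48. That value was 0.33 in the S series alone, 0.0052 in the WT/TKO series alone, 0.09 with the summed Y-linked level in place of labelled sex and 0.35 with the atrial covariate (unadjusted p = 0.00344, adjusted p = 0.467). In male-labelled libraries it ran from 0.05 without S10 to 0.40 without S8, and in female-labelled ones it was 0.17 without the series covariate and 0.19 with the atrial covariate.

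The ratio of Pln to Atp2a2, which sets the inhibitor beside its pump, was 0.215 at the median of the 20 libraries on the FPKM scale. It ran from 0.106 in S7 to 0.315 in S2, both WT. The median was 0.191 in WT and 0.238 in KO among male-labelled libraries, and 0.291 in WT and 0.205 in KO among female-labelled ones, so the medians stood in opposite order, with overlapping ranges in both and no test of the ratio. Among the KO libraries, those of the S series ran from 0.215 to 0.30 and those of the WT/TKO series from 0.117 to 0.238. As a description only, the 2 mRNAs followed each other weakly across libraries (Spearman rho 0.14 on the FPKM scale and 0.29 on log2 CPM, n = 20).

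Hrc encodes the histidine-rich calcium-binding protein of the sarcoplasmic reticulum, and Sri encodes sorcin, a calcium-binding protein that interacts with the release and entry channels. Between genotypes Hrc had a log2 fold change of 0.10 in male-labelled libraries (SE 0.213, adjusted p = 0.937) and 0.14 in female-labelled ones (SE 0.150, adjusted p = 0.661). Sri had one of -0.10 (SE 0.127, adjusted p = 0.905) and -0.02 (SE 0.125, adjusted p = 0.944). Sri was also among the steadiest members, at 61.5 ± 11.5 CPM in male WT (SD, n = 5), 57.8 ± 3.79 CPM in male KO (SD, n = 5), 67.6 ± 6.07 CPM in female WT (SD, n = 3) and 60.7 ± 7.04 CPM in female KO (SD, n = 7). Over all 20 libraries the 95% interval of the KO to WT difference ran from -0.18 to 0.35 for Hrc and from -0.24 to 0.10 for Sri.

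Slc8a1 encodes NCX1, the exchanger that expels calcium in exchange for sodium. The male WT libraries had 269, 161, 438, 241 and 225 CPM, with S7 highest of all 20, and the male KO libraries had 183, 248, 237, 166 and 175 CPM. Female WT libraries had 252, 134 and 108 CPM, with S1 apart from S2 and S3 as for Atp2a2, and the female KO libraries ran from 159 to 286 CPM with a median of 178. The groups overlapped. The log2 fold change was -0.41 in male-labelled libraries (SE 0.209, unadjusted p = 0.0774, adjusted p = 0.882) and 0.16 in female-labelled ones (SE 0.279, adjusted p = 0.802). The genotype by labelled sex term, from a fit with 1 series term for both labelled sexes, was -0.78 (SE 0.379, unadjusted p = 0.0541, adjusted p = 0.325), and ran from -1.20 without S1 to -0.46 without S7 (adjusted p = 0.0541 and 0.567). Without S7 the male value was -0.19, and without S3 and without S1 the female value was -0.07 and 0.58, none with an adjusted p under 0.05.

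Atp2b1 encodes PMCA1, a calcium pump of the cell membrane. Its level was 56.9 ± 5.70 CPM in male WT (SD, n = 5), 51.5 ± 3.31 CPM in male KO (SD, n = 5), 53.7 ± 4.97 CPM in female WT (SD, n = 3) and 59.7 ± 8.19 CPM in female KO (SD, n = 7). The difference over all 20 libraries was -0.05 on the log2 scale (95% interval -0.22 to 0.13, adjusted p = 0.996), the second narrowest interval of the members after Sri. The FPKM ratio of Atp2b1 to Slc8a1 ran from 0.182 in S7 to 0.592 in S3, with medians of 0.270 in WT and 0.343 in KO among male-labelled libraries and of 0.462 and 0.367 among female-labelled ones. The ratio of Slc8a1 to Atp2a2 ran from 0.00528 in TKO3 to 0.0144 in S7, with medians of 0.00697 in WT and 0.00706 in KO among male-labelled libraries and of 0.00782 and 0.00662 among female-labelled ones. The ranges of both ratios overlapped between genotypes in both labelled sexes.

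Cacna1c encodes the pore of the L-type channel, Cav1.2. The male WT libraries had 242, 234, 143, 234 and 236 CPM, where S7 stood far below 4 nearly equal values, and the male KO libraries had 178, 165, 177, 204 and 222 CPM. Female WT libraries had 200, 275 and 290 CPM, and the female KO libraries ran from 177 to 289 CPM with a median of 219. The groups overlapped in both labelled sexes, through S7 alone in the male-labelled libraries. The log2 fold change was -0.22 in male-labelled libraries (SE 0.142, adjusted p = 0.882), -0.39 in female-labelled ones (SE 0.168, unadjusted p = 0.0357, adjusted p = 0.254) and -0.26 over all 20 (SE 0.103, unadjusted p = 0.0208, adjusted p = 0.996). In male-labelled libraries it ran from -0.31 without S7 to -0.13 without S9. In female-labelled ones it was -0.55 without S1 (adjusted p = 0.0207), which then passed, but -0.29 without S3 (adjusted p = 0.706) and -0.13 without the series covariate. Over all 20 it was -0.15 in the WT/TKO series alone, -0.17 without the series covariate and -0.09 with the summed Y-linked level in place of labelled sex (unadjusted p = 0.442).

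Cacnb2 encodes a beta subunit that brings the pore to the membrane, and Cacna2d1 the alpha2delta subunit that raises its surface level. Cacnb2 ran from 13.8 CPM in S9 to 58.8 CPM in TKO1, and its log2 fold change was -0.29 in male-labelled libraries (SE 0.315, adjusted p = 0.884) and -0.07 in female-labelled ones (SE 0.304, adjusted p = 0.936). Cacna2d1 ran from 85.7 CPM in S7 to 230 CPM in WT1, and its log2 fold change was -0.04 (SE 0.20, adjusted p = 0.976) and 0.03 (SE 0.166, adjusted p = 0.955). The 95% interval over all 20 libraries reached from -0.67 to 0.25 for Cacnb2 and from -0.32 to 0.21 for Cacna2d1. The interval was wider for Cacnb2, whose CPM varied 4.27-fold between libraries, than for Cacna2d1, which varied 2.69-fold.

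Cacna1h encodes the pore of a T-type channel, Cav3.2, and had the largest genotype difference of the members in female-labelled libraries, though not in male-labelled ones. In the former it had 20.3, 9.89 and 15.6 CPM in the WT libraries S1 to S3, and 4.21, 6.5 and 5.53 CPM in the KO libraries S4 to S6. The other KO libraries TKO1 to TKO4 had 7.86, 7.63, 7.62 and 8.41 CPM. All 7 KO libraries lay below all 3 WT libraries, and 1 of 10 members showed such a separation, as did 4.84% of all genes. Summed skeletal muscle markers did not overlap between the same groups either, at 903 to 1960 CPM in KO and 427 to 853 CPM in WT. In each of these groups 6 of the 7 were detected, with Myh1 at 0. In the WT/TKO series Myh4 and Myh1 were both at 0, so there the sum came from other genes of the list. The endothelial sums given above overlapped, and the part of these markers in the Cacna1h difference was not tested. The log2 fold change was -1.50 (95% interval -2.03 to -0.98, SE 0.243, unadjusted p = 3.24e-05), or 0.353 of the WT level, with an adjusted p of 0.0522 that missed the threshold. With naming series in the fit, S1 to S3 are in effect compared only with S4 to S6, and these sets differ in sex-linked genes as well as in labelled genotype. The 2 WT libraries of the other series, labelled male, had 9.54 and 8.98 CPM, close to TKO1 to TKO4. With DESeq2 the adjusted p was 2.18e-05, and over all settings that left out no single library it ran from 7.95e-08 with no filter on low counts to 0.147 with limma on log2(FPKM + 1), at a negative sign throughout. Without S2 and without S1 edgeR gave log2 values of -1.73 and -1.25 (adjusted p = 0.00539 and 0.00514), which passed, whereas leaving out any other library gave an adjusted p of up to 0.328.

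In male-labelled libraries Cacna1h had 9.54, 8.98, 90.0, 17.3 and 35.2 CPM in WT1, WT2, S7, S8 and S9, and 16.0, 43.4, 55.7, 9.71 and 10.2 CPM in S10, S11, S12, TKO5 and TKO6. The 4 highest values were those of S7, S12, S11 and S9, the same 4 libraries that had over 500 CPM of Myl7. The log2 fold change was -0.16 (95% interval -1.07 to 0.75, adjusted p = 0.949). Without those 4 libraries it was 0.03, and without S7 alone 0.37. In this labelled sex 0 of 10 members separated KO from WT, against 0.642% of all genes, and over all 20 libraries 0 of 10, against 0.00658% of all genes. The genotype by labelled sex term of Cacna1h was 0.18 with a 95% interval from -1.48 to 1.83, so the test did not tell the male from the female effect, and that interval is too wide to read them as alike. This fit has 1 series term for both labelled sexes, whereas the effects of -0.16 and -1.50 come from fits with a series term each, which differ by more than the term shows. The term was 0.90 without the series covariate, 1.19 in the S series alone, 1.11 without S7 and 1.12 without the 4 libraries of high Myl7 (unadjusted p = 0.0171, adjusted p = 0.286), the last being past the study's thresholds. Leaving out S4 gave -0.19.

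**Figure D3:**
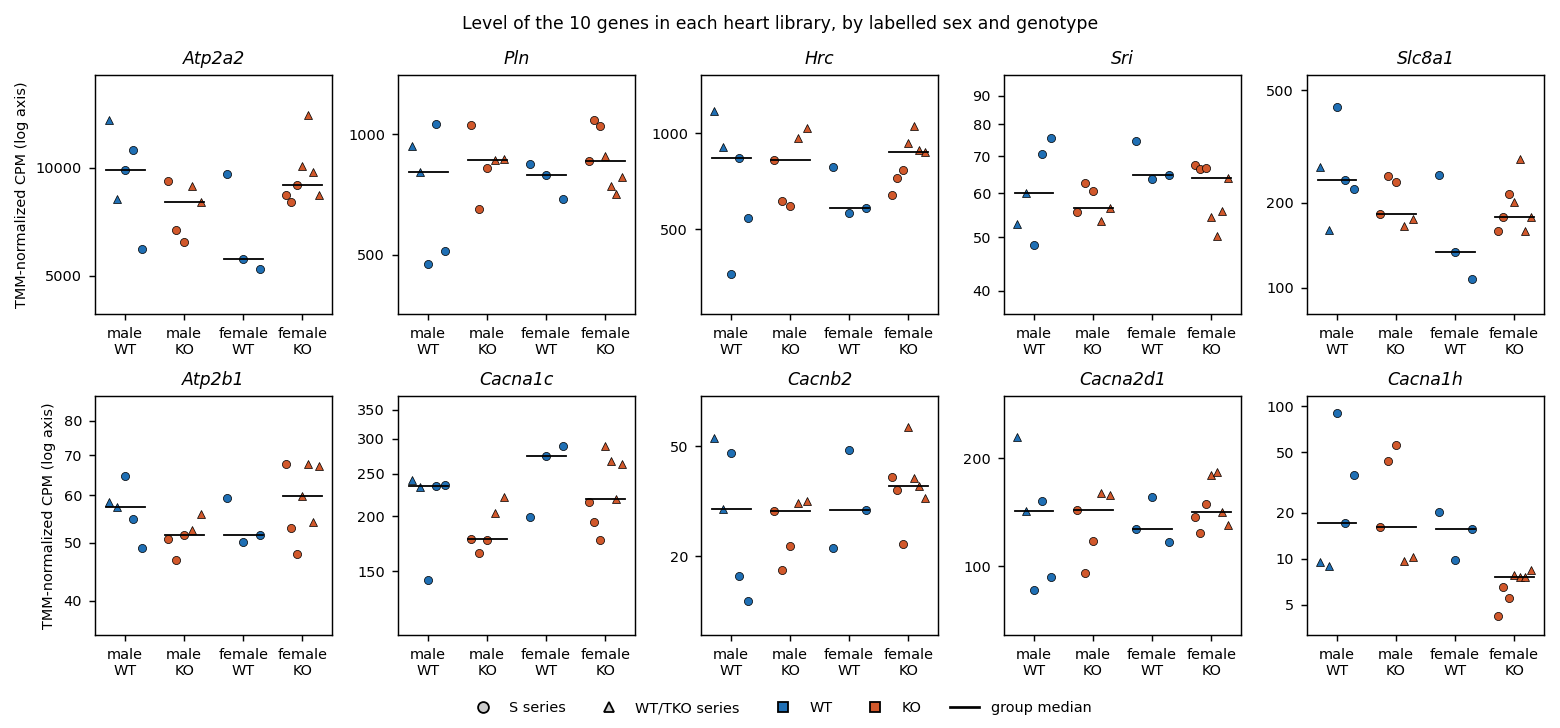
CPM of each gene in each library on log axes, by labelled sex and genotype, with the group median as a bar, circles for the S series and triangles for the WT/TKO series. In the panel of Cacna1h the 7 female KO libraries lie below the 3 female WT libraries, and the 4 highest points are male-labelled libraries of the S series, from 35.2 to 90.0 CPM.

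The naming series were compared in the fit of all 20 libraries, with labelled sex and genotype as covariates. Of the 10 members, 3 had an adjusted p under 0.05, Hrc, Cacna2d1 and Cacna1c, and all 3 were higher in the WT/TKO series; 16.4% of all genes had one. By the study's thresholds 1 of 10 passed, Cacna1h, as did 12.8% of all genes, and 1 of 10, Hrc, did not overlap between the series, as did 1.01% of all genes. The median log2 difference of the members was 0.23 and that of all genes -0.01.

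Hrc had 872 to 1177 CPM in the 8 libraries of the WT/TKO series (median 949) and 361 to 837 CPM in the 12 S libraries (median 626). Its log2 difference was 0.57 (SE 0.124, adjusted p = 0.0046), or 1.49-fold, and lay between 0.50 and 0.62 with any 1 library left out, passing each time. Among KO libraries alone it was 0.48 (adjusted p = 0.0087). Without the libraries above 500 CPM of Myl7 it was 0.39 (adjusted p = 0.0143), and with the mean of the atrial markers as a covariate it was 0.22 (adjusted p = 0.388), no longer past the threshold. DESeq2 gave the lowest adjusted p, 0.000309. As a description, the Spearman rho of Hrc with the mean log2 CPM of the atrial markers was -0.70 over the 20 libraries. It was -0.53 over the 16 without high Myl7. Other cell type markers had values of like size or larger, -0.78 and -0.78 for macrophage and -0.73 and -0.63 for adipocyte markers. The 4 macrophage markers, all detected, summed to 172 to 378 CPM in the S series and 135 to 177 CPM in the WT/TKO series. The 5 adipocyte markers summed to 0.383 to 385 CPM and 0.211 to 0.847 CPM, with Lep at 0 in the S series. The part of both in the Hrc difference was not tested.

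Cacna2d1 had 130 to 230 CPM in the WT/TKO series (median 160) and 85.7 to 156 CPM in the S series (median 126), with a log2 difference of 0.43 (SE 0.125, adjusted p = 0.0251). It missed the threshold without WT1 (0.30, adjusted p = 0.112) and without S11 (0.39, adjusted p = 0.0570), and was 0.31 among KO libraries alone (adjusted p = 0.0949) and 0.08 with the atrial covariate (adjusted p = 0.787), the highest of its alternatives, the lowest being 0.0115 with DESeq2. Cacna1c had 204 to 290 CPM (median 238) and 143 to 290 CPM (median 197), with a log2 difference of 0.30 (SE 0.101, adjusted p = 0.0438). It passed in 7 of the 20 fits that left out 1 library, those without S1, S2, S3, S7, S8, S9 or TKO3, and over the settings that left out no single library its adjusted p ran from 0.0173, with DESeq2 and likewise among KO libraries alone, to 0.418 with the atrial covariate. Without the libraries of high Myl7, Cacna1c was at 0.29 (adjusted p = 0.0812) and Cacna2d1 at 0.25 (adjusted p = 0.161). The number of members called was 0 with the atrial covariate, 1 without the libraries of high Myl7, 1 without WT1 or S11, 2 without WT2, S12, TKO1, TKO2, TKO4, TKO5 or TKO6, and 6 without S7.

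Cacna1h had 7.62 to 10.2 CPM in the WT/TKO series and 4.21 to 90.0 CPM in the S series. The log2 difference was -1.14 (SE 0.412, adjusted p = 0.0610), and it passed with DESeq2 (-1.10, adjusted p = 0.0321) and with no filter on low counts (-1.14, adjusted p = 0.0164). It was -0.51 among KO libraries alone, -0.29 without the libraries of high Myl7 and 0.03 with the atrial covariate, and did not pass in these 3 settings. Its Spearman rho with the mean log2 CPM of the atrial markers was 0.49 over 20 libraries and 0.02 over the 16. With that of the 6 pacemaker and conduction markers it was 0.66 and 0.52. Those 6 markers summed to 27.0 to 120 CPM in the S series and 27.4 to 83.5 CPM in the WT/TKO series. In the latter Isl1 was at 0, and the part of these markers was not tested. The rho of Slc8a1 with the atrial markers was 0.44 and 0.22, and its rho with the endothelial markers was -0.67 and -0.66. Its series difference was -0.07, but 0.38 with the atrial covariate and 0.12 without the libraries of high Myl7, none past the threshold. In S7, Myl7 was at 1573 CPM while the ventricular light chain Myl2, at 2863 CPM, was the lowest of all libraries, and S7 was also the library with the highest Cacna1h and Slc8a1 and the lowest Hrc, Pln, Sri, Cacna1c and Cacna2d1. The part of atrial transcripts in these differences was examined only through the covariate and the left-out libraries.

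**Figure D4:**
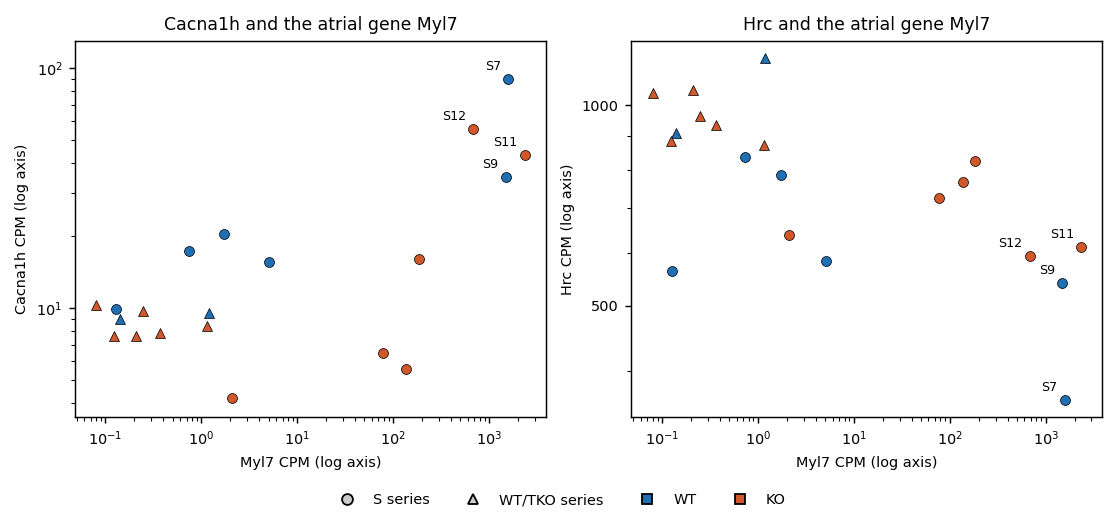
CPM of Cacna1h (left) and Hrc (right) against that of the atrial gene Myl7 in each of the 20 libraries, all axes logarithmic, with circles for the S series, triangles for the WT/TKO series, blue for WT and orange for KO. The 4 named libraries above 500 CPM of Myl7 have the highest Cacna1h, from 35.2 to 90.0 CPM, and their Hrc lies between 361 and 612 CPM.

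For the other members the series difference did not pass: Atp2a2 0.37 (adjusted p = 0.109), Cacnb2 0.51 (adjusted p = 0.104), Sri -0.19 (adjusted p = 0.103), Atp2b1 0.15 (adjusted p = 0.217) and Pln -0.03 (adjusted p = 0.907). The unadjusted 95% intervals of Atp2a2 (0.04 to 0.70), Cacnb2 (0.07 to 0.96) and Sri (-0.36 to -0.03) excluded 0, and those of Atp2b1 and Pln (-0.32 to 0.26) did not. Pln was at -0.48 with the atrial covariate (unadjusted p = 0.00251, adjusted p = 0.0555) and at -0.27 without the libraries of high Myl7 (adjusted p = 0.0627), neither past the threshold. Without S7, Cacnb2, Sri and Cacna1h passed the threshold (adjusted p = 0.0259, 0.0308 and 0.0302). Sri also passed with limma on log2(FPKM + 1) (-0.26, adjusted p = 0.0379), and Cacna1h also passed without S10, S4, S5 or S6.

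Across the 20 libraries, which share depth and tissue makeup as well as group, the closest pair of members by Spearman rho of log2 CPM was Hrc and Cacna2d1 (0.81), followed by Atp2a2 with Hrc (0.60), Atp2a2 with Atp2b1 (0.56) and Atp2b1 with Cacnb2 (0.56). Sri and Cacnb2 had the most negative value (-0.59). On the FPKM scale the first pair was again the closest (0.80), but Atp2a2 with Atp2b1 was at 0.41 and Atp2b1 with Cacnb2 at 0.28, and Hrc with Sri was the most negative (-0.62), so the order below the second pair depended on the scale. The 3 L-type subunits were only loosely tied, with 0.34 for Cacna1c and Cacnb2, 0.44 for Cacna1c and Cacna2d1 and 0.45 for Cacnb2 and Cacna2d1.

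**Figure D5:**
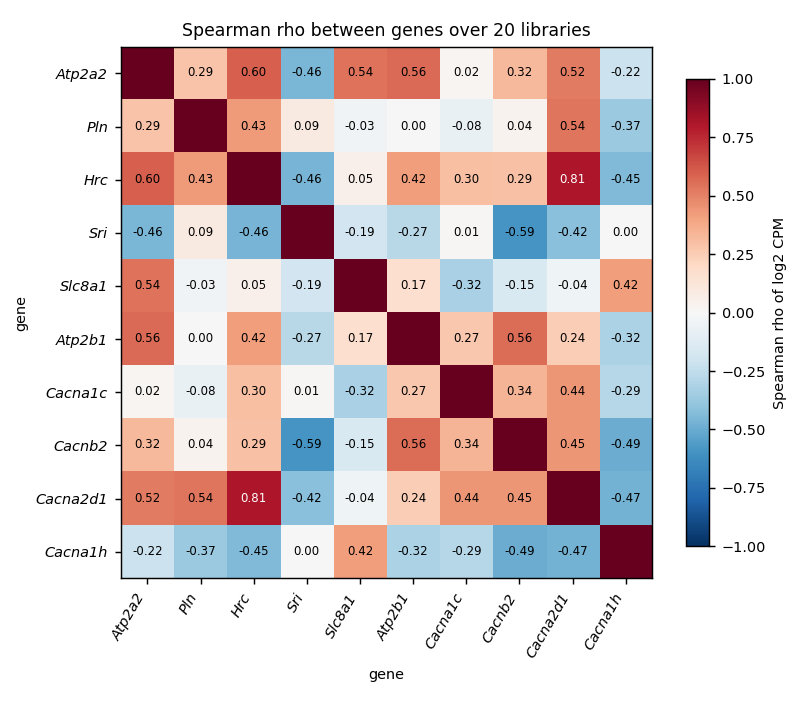
Spearman rho of log2 CPM between each pair of genes over the 20 libraries, from blue (negative) to red (positive). Hrc and Cacna2d1 have the highest value, 0.81, and Cacna1h is negative with all but Sri and Slc8a1.

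For each member the 3 genes with the most similar pattern over the 20 libraries were taken from the 15186 other genes tested. For Atp2a2 these were Nomo1 (rho 0.96), Plekhb2 (0.95) and Pcx (0.95), for Pln Coq10a (0.90), Ndufs3 (0.89) and Ldhb (0.89), for Hrc Ogdhl (0.94), Gfra1 (0.94) and Gm826 (0.94), and for Sri Rinl (0.92), Naip2 (0.90) and Timm9 (0.89). For Slc8a1 they were Bmpr1a (0.87), Slc38a10 (0.86) and Palld (0.85), and for Atp2b1 Dennd5a (0.90), Pard3b (0.89) and Akap7 (0.86). The channel subunits had Stab2 (0.85), Zfp612 (0.84) and R3hdm1 (0.82) nearest to Cacna1c, Tut4 (0.94), Dhx40 (0.91) and Phf3 (0.91) nearest to Cacnb2, and Coq8a (0.88), Gatb (0.87) and Egln2 (0.87) nearest to Cacna2d1. Cacna1h was nearest to Sbk3 (0.83), Ncam1 (0.82) and Nek10 (0.82). No member was among the 3 nearest genes of another.

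Other genes of calcium transport were counted in 5 lists. In KO against WT, edgeR gave 0 genes of any list an adjusted p under 0.05, in either labelled sex or over all 20 libraries. At an unadjusted p under 0.05 the lists held 0 to 2 genes each in male-labelled libraries and 0 to 4 in female-labelled ones. Over all 20 libraries they held 0 or 1. Among all genes tested, 688 of 14481, 2597 of 14511 and 748 of 15187 had such a p, in the same order. The SERCA list holds regulators and also the pumps Atp2a1 and Atp2a3. Of its 17 tested genes, 4 were higher and 13 lower in KO in male-labelled libraries (median -0.23). In female-labelled ones 15 were higher and 2 lower (median 0.23), whether or not they passed. Of 11 mitochondrial calcium transport genes 3 were higher and 8 lower in the former (median -0.09) and 9 higher and 2 lower in the latter (median 0.15). The medians of all genes tested were -0.01 and -0.02. Over all 20 libraries the genes of the SERCA list with the smallest p were Hspb6 (log2 fold change 0.26, SE 0.138) and Camk2d (0.13, SE 0.078), at an adjusted p of 0.996 each. Of 16 tested channel subunits and regulators, Rrad, which encodes a small GTPase that restrains the L-type channel, had the smallest p, with a log2 fold change of 1.06 (SE 0.266, unadjusted p = 0.000677, adjusted p = 0.643), 0.82 in male-labelled libraries and 1.73 in female-labelled ones (adjusted p = 0.882 and 0.0861). Cacna1d, another L-type pore, followed with -0.64 (SE 0.357, adjusted p = 0.996). Of 11 other pumps and exchangers these were Atp2b2 (1.27, SE 0.597) and Slc8a2 (0.35, SE 0.260), of 10 store-operated and TRP entry genes Trpm7 (-0.31, SE 0.171) and Trpc1 (-0.22, SE 0.126), and of 11 mitochondrial genes Micu3 (-0.26, SE 0.150) and Mcu (0.12, SE 0.099), all at an adjusted p of 0.996.

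Genes of these lists were also compared between the naming series. Sln, which encodes the atrial SERCA inhibitor sarcolipin and is one of the atrial markers, had at most 0.249 CPM (3 counts) in the WT/TKO series and 0 to 968 CPM in the S series (adjusted p = 0.000493). Cacna1s was higher in the WT/TKO series (log2 1.13, adjusted p = 0.0480), and Cacnb3 (-0.72, adjusted p = 0.0245), Cacna2d3 (-1.88, adjusted p = 0.0149) and Cav3, the muscle caveolin (-0.29, adjusted p = 0.0415), were lower. Of the mitochondrial genes reported here, the uniporter subunit Mcub (-0.75, adjusted p = 0.0177) was also lower, and no gene among the other pumps and exchangers or the store-operated and TRP genes passed.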

How the data were processed

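RNA of mouse hearts was sequenced as poly-A selected, 150 bp paired-end reads, and the unnormalized read count of each of 29339 genes in each of 20 libraries was deposited by the authors in 1 table. The submitters' processing notes list HISAT2, HTSeq 0.6.1p2, DESeq2 1.26.0 and GRCm38, and strand setting and annotation are not given in the sources used here. The authors also deposited FPKM, which equals the count divided by exon length and library total; for 28730 of 29328 genes that length was within 1% of the summed exons of GENCODE M21. Groups were taken from the labels alone.

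Counts were scaled by TMM and tested with edgeR 4.0.16 (quasi-likelihood, Benjamini-Hochberg adjustment) over genes that reached 10 counts in 3 or more of the fitted libraries. KO was compared with WT in each labelled sex (series as covariate), over all 20 libraries (labelled sex and series), and by a genotype by labelled sex term; the series were compared with labelled sex and genotype as covariates. Total counts of 12540002 to 20038593 put at least 66 counts behind each member in each library. For members with many counts, spread between libraries limits precision more than counting error does. For Cacna1h, with 107 to 152 counts in the WT/TKO series, counting error is a larger part of the spread. The 44 within-group pairs all differed beyond counting noise. Tests were tried on simulated data with 200 genes changed 4-fold.

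The members and lists were chosen with earlier results of these data known. Named genes were the members, their 3 nearest genes by Spearman rho, and from each list the 2 smallest p over all 20 libraries plus any adjusted p under 0.05, of which 1 is not reported here. Cell type markers were summed as CPM for the ranges given, and averaged as log2 CPM for Spearman rho and the atrial covariate. Alternatives were DESeq2 1.42.0, upper-quartile scaling, no filter, limma 3.58.1 on log2(FPKM + 1), other covariates, 1 series alone and each library left out. Fits without the libraries above 500 CPM of Myl7 and the female fit with the atrial covariate were added after seeing the data. R 4.3.3, Python 3.11.15 and matplotlib 3.10.9 were used.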

Additional observations from a re-analysis of the deposited data

Results flagged for a closer look

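In 30 groups of member values, 2 libraries stood apart from the rest of their group by Dixon's criterion, which chance alone meets in about 1 group in 20. Atp2a2 was at 13964 CPM in TKO2, a KO library labelled female, where the nearest of the other 6 was at 10122 CPM. Cacna1c was at 143 CPM in S7, a WT library labelled male, where the nearest of the other 4 was at 234 CPM. S7 also had the highest Cacna1h and Slc8a1 and the lowest Myl2 of all libraries, and the part of its atrial transcripts in the Cacna1c value was not tested.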

How the results depend on the processing

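Of the values of single members under other settings, 568 kept their direction and side of the threshold, 24 became weaker, 16 stronger and 28 changed sign. These include Spearman rho values with the atrial markers, which have no threshold and counted as kept when they moved little. Of the counts and other main values, 397 stayed within a set margin of the main value, though not always equal to it. Another 53 rose and 37 fell beyond that margin. The cause of these changes was not tested, except that dropping the filter changes which genes are tested. The labels number the libraries only in their names (such as S1 or TKO1). No paired analysis was possible because, within a naming series and labelled sex, the groups compared share no such number. WT1 and TKO1, like WT2 and TKO2, are alike in number but not in labelled sex, and the labels do not call them pairs. Precision was limited by the spread between libraries and by 3 female WT libraries, all of 1 series.

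DESeq2 gave an adjusted p under 0.05 to 12 genes in male-labelled libraries, 383 in female-labelled ones (with 1 member), 12 over all 20 libraries and 19 for genotype by labelled sex, where 2 members passed the study's thresholds. With no filter on low counts these numbers were 59, 1110 (1 member), 3 and 129, and 852, 2239, 1075, 2814 (2 members) and 3806 genes, the last for the series, passed the study's thresholds. With limma on log2(FPKM + 1) 52, 526, 38, 887 (2 members) and 585 genes passed them, and 1 gene over all 20 libraries had an adjusted p under 0.05. Without the series covariate 2 genes did in female-labelled libraries. In the S series alone 5 genes did in male-labelled libraries and 9 over both sexes, where 453 passed the study's thresholds, and 0 members passed them for genotype by labelled sex.

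In the WT/TKO series alone 2 genes had an adjusted p under 0.05 in male-labelled libraries, Pln was at -0.0061 and Cacna1h at 0.11, and Cacna1h was at 0.12 over both sexes. With the summed Y-linked level as covariate 139 genes passed the study's thresholds in male-labelled libraries, with Pln at -0.037 and Cacna1h at 0.12, and 155 did over all 20. With the 4 libraries of high Myl7 left out, a setting chosen after seeing the data, 4 genes had an adjusted p under 0.05 in male-labelled libraries, Pln was at -0.00084 and Cacna1h at 0.034, and 2 members passed the study's thresholds for genotype by labelled sex. The same setting gave the series 1594 genes and 1 member with an adjusted p under 0.05, 0 members past the study's thresholds and Slc8a1 at 0.12. With the atrial covariate the series had 607 genes and 0 members with an adjusted p under 0.05, 0 members past the study's thresholds, Slc8a1 at 0.38 and Cacna1h at 0.033, and 1 member, Cacna1h, passed those thresholds over all 20 libraries in KO against WT. Among KO libraries alone 1622 genes differed between the series and 0 members passed the study's thresholds. On the FPKM scale the Spearman rho with the atrial markers was 0.041 for Pln and 0.017 for Atp2b1 (n = 20).

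With each library left out in turn, the genes with an adjusted p under 0.05 numbered 0 to 1 in male-labelled libraries, 1 (without S6) to 2409 (without S1) in female-labelled ones, 0 to 1 over all 20, 0 to 1127 (without S1) for genotype by labelled sex and 1630 (without WT1) to 3126 (without S7) for the series. Those past the study's thresholds numbered 205 (without S12) to 484 (without WT2), 640 (without S3) to 2954 (without S1), 234 to 390, 760 (without S3) to 3068 (without S1) and 1662 to 2071. Members with an adjusted p under 0.05 numbered 0 to 3 (without S1) in female-labelled libraries and 1 to 6 for the series. Members past the study's thresholds numbered 1 to 3 in female-labelled libraries, 0 to 2 for genotype by labelled sex and 0 to 2 for the series. Cacna1h ran from -0.38 (without S8) to 0.37 (without S7) in male-labelled libraries, from -0.53 (without S12) to 0.044 (without S7) over all 20, and from -0.19 (without S4) to 1.11 (without S7) for genotype by labelled sex. Slc8a1 ran from -0.067 (without S3) to 0.58 (without S1) in female-labelled libraries and from -0.19 to 0.035 for the series, and Pln from -0.10 to 0.023 for the series.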
